A study of Homo sapiens with 4 samples.

Results

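The genes described here are 10 genes that load and switch on the DNA replication helicase, MCM2, MCM3, MCM4, MCM5, MCM6, MCM7, MCM10, CDC6, CDT1 and GMNN, in the human acute myeloid leukemia (AML) cell line MV4-11 after knockdown of ANP32B. They were selected by symbol from the 18885 genes with a value, with their levels in these 4 libraries already known. Their difference between the groups therefore chose them, and it is described below with no test. The study compared 2 libraries of control MV4-11 cells (NC) with 2 libraries of MV4-11 cells that expressed a short hairpin RNA (shRNA) against ANP32B, a nuclear histone chaperone. The labels describe the NC cells as having no treatment and no shRNA, whereas the study's text describes a control hairpin, sh-NC, and which of these holds for the NC libraries was not settled here. If they carried no hairpin, the effect of carrying one cannot be told apart from that of the knockdown. The knockdown values carry the mark S3, read here as a single hairpin, and nothing in the labels says that the 2 libraries of a group came from separate cultures. Every value is in TPM, a measure of transcript abundance that corrects for gene length and gives each library an equal total, so levels of different genes can be set side by side.

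Before a cell enters S phase, each origin of replication is licensed. The origin recognition complex sits on the DNA, CDC6 joins it, and CDT1 brings in the ring-shaped MCM2 to MCM7 complex, which is left on the DNA as an inactive helicase. Geminin, the product of GMNN, binds CDT1 from S phase until mitosis and so keeps origins from being licensed again. In S phase, kinases and firing factors turn the loaded ring into the active helicase together with CDC45 and the GINS complex, and MCM10 assists this last step. Most of these genes are transcribed in cycling cells under E2F factors, and resting or differentiated cells hold little of them.

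The promoters of the members are shown first. Their sequence was not itself used in the choice of the genes, but it is not independent of that choice. The members were chosen by function and with their values known. Outside the members, genes that were lower after knockdown held an E2F-type word (listed below) more often than other genes tested, as given further below. The motif counts are therefore description only. Promoter windows of RefSeq (build GRCh38.p14), from 250 bases before to 50 bases after a transcription start, were given for 8 of the 10 members, with 11 starts in all. MCM4 and MCM5 had no entry. E2F-type words (the word TTGGCGC, the word TTCCCGC, the word TTCGCGC and the word TTGCCGC, on either strand) and the E-box CACGTG, which MYC and MAX recognise, are in capitals in the stretches below, each written 5′ to 3′ on the strand of its gene.
MCM2, chr3:127598388-127598435, plus strand: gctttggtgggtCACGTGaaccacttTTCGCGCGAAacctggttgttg
MCM3, chr6:52284897-52284927, minus strand: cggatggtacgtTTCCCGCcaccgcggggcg
MCM3, chr6:52284727-52284777, minus strand: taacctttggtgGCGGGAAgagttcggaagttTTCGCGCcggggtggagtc
MCM6, chr2:135876573-135876606, minus strand: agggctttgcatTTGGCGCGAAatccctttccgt
MCM6, chr2:135876511-135876544, minus strand: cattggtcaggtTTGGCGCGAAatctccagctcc
MCM7, first start, chr7:100101566-100101596, minus strand: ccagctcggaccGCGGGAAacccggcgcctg
MCM7, first start, chr7:100101384-100101434, minus strand: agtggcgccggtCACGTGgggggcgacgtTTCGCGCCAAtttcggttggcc
MCM7, second start, chr7:100100876-100100930, minus strand: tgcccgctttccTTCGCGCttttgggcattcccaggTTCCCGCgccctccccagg
CDC6, chr17:40287875-40287905, plus strand: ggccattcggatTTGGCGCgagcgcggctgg
CDT1, chr16:88803742-88803784, plus strand: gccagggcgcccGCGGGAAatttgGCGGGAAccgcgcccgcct
GMNN, first start, chr6:24774935-24774964, plus strand: gcgtcagttggtCACGTGgttgttcggagc
GMNN, second start, chr6:24775322-24775352, plus strand: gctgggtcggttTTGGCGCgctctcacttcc

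An E2F-type word was found in 8 of the 11 windows, in 7 of the 8 members with an entry, with 18 matches in all. Among all 35116 promoter windows of the same 300 bases, 13.0% held one. Counted by gene among the genes tested outside the members, the share was higher, as given further below. The long capital runs of MCM2, MCM6 and MCM7 are palindrome-like, so that a word on one strand overlaps a word on the other, and each was counted. MCM6 held the same 10-letter run in both of its stretches, and CDT1 held the word GCGGGAA in tandem. In MCM2, MCM3, MCM7 and CDC6 a word lay within 14 bases of a listed start, whereas in MCM6 all 4 matches lay between positions -151 and -80 from the start. The E-box was in 3 windows, those of MCM2, MCM7 and GMNN, against 7.26% of all windows. The CCAAT box (CCAAT), which NF-Y binds, was in 8 windows of 6 members with 17 matches, against 34.6% of all windows. For the E-box and the CCAAT box too, the share was higher when counted by gene among the genes tested, as given further below. MCM10 held no E2F-type word and 2 CCAAT boxes. The CHR element TTTGAA, known from late cell cycle genes, matched none of the 11 windows and 15.2% of all. The members' windows had a GC content from 57.3% to 74.3% with a median of 67.7%, above the median of 58.7% over all windows, and GC-rich words are found more often in GC-rich sequence. A match is a description of the letters and not a binding site.

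**Figure D1:**
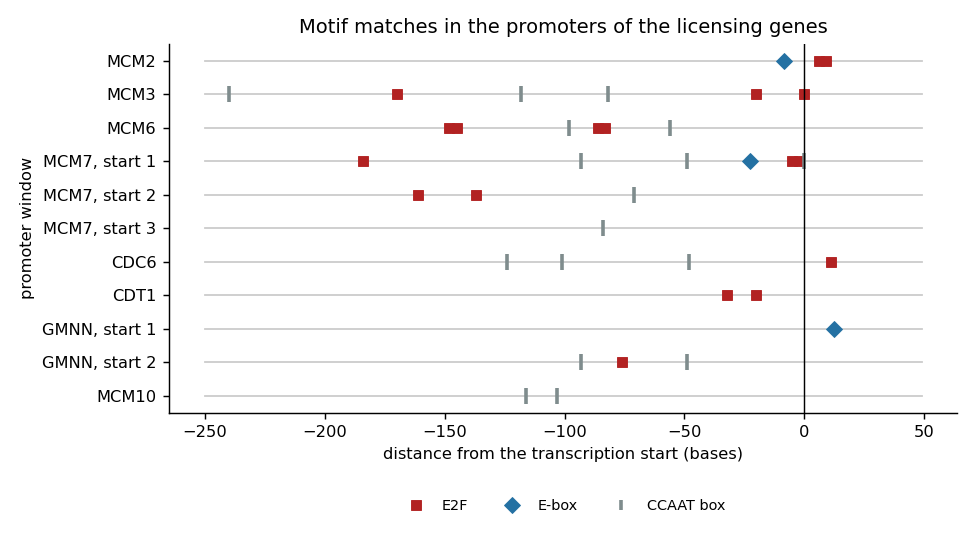
Matches to 3 motifs in the 11 promoter windows of the members, by distance from the transcription start in bases (negative values lie upstream). Squares are E2F-type words, diamonds E-boxes and ticks CCAAT boxes, and all windows except those of the third MCM7 start, the first GMNN start and MCM10 hold at least 1 square.

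ANP32B itself (ENSG00000136938), the targeted gene, was at 358 and 364 TPM in the NC libraries and at 54.1 and 49.3 TPM in the sh-ANP32B libraries, 14.3% of the NC mean (log2 fold change -2.78, standard error 0.056, adjusted p = 2.89e-05). The 4 libraries summed to between 997272 and 998546 TPM, the number of reads behind them is unknown, and replicates differed by a median of 0.112 (NC) and 0.113 (sh-ANP32B) on the log2 scale. Fold changes are sh-ANP32B against NC on the scale of log2(TPM + 1), adjusted p-values come from limma over the 16937 genes tested, and a gene outside the members was called where its adjusted p was below 0.05 and its log2 fold change was past 0.5 in size. For any gene taken alone, 2 values against 2 allow an exact two-sided permutation p of 0.33 at the least, and the adjusted p draws on the variance that genes share and measures the spread between these libraries. Of the 11 markers of MV4-11 cells listed, 10 had values, among them CD33 (52.8, 53.0, 72.6 and 67.9 TPM in NC 1, NC 2, sh-ANP32B 1 and sh-ANP32B 2), HOXA9 (184, 186, 175 and 176 TPM) and FLT3 (6.20, 6.30, 5.52 and 5.53 TPM), which were not called. Of the 10, 4 rose, 1 fell and 5 were not called by limma, beside 17.9% of all genes tested called higher and 10.1% called lower. FUT4 (log2 fold change -0.335, adjusted p = 0.00694) and CEBPA (0.088, adjusted p = 0.0822) were also not called, and MPO had no values. LYZ, the lysozyme gene of myeloid cells, rose from 471 and 463 TPM to 5308 and 5260.0 TPM (log2 fold change 3.50, adjusted p = 3.33e-06), followed by ANPEP (1.46, adjusted p = 6.76e-05), CD4 (0.695, adjusted p = 0.000134) and SPI1 (0.51, adjusted p = 0.000335). MEIS1, a progenitor transcription factor, fell (-0.605, adjusted p = 0.00138), so the levels of some of the line's own markers differed between the groups.

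All 10 members were lower in both sh-ANP32B libraries than in both NC libraries. This was also so for 32.1% of all genes tested (the opposite order for 42.5%), and since the members were chosen with these values known, nothing is read from their number. The knockdown means were between 32.6% and 49.75% of the NC means. The members' log2 fold changes ran from -1.59 to -0.997 with a median of -1.22, beside a median of 0.08 over all genes tested, of which 1.77% had a log2 fold change at or below that of MCM5, the member with the smallest difference. In bulk RNA, fewer cells that express a gene and less RNA per cell cannot be told apart.

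**Figure D2:**
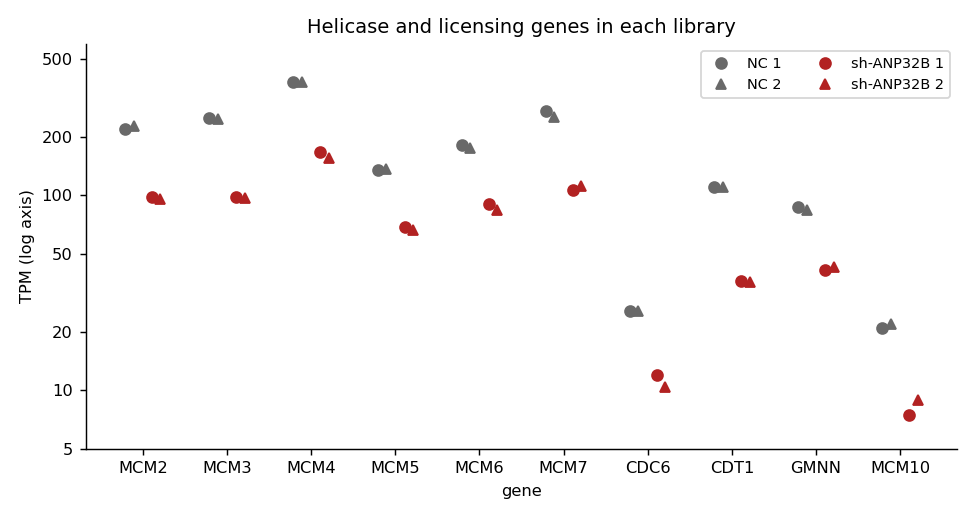
TPM of each member in each of the 4 libraries, on a log axis. Gray points are the NC libraries and red points the sh-ANP32B libraries, with circles for replicate 1 and triangles for replicate 2. For each of the 10 genes both red points lie below both gray points, and CDT1 (36.4 and 35.9 TPM against 111 and 111) has the widest gap.

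The ring subunits are described first, in the order of their level. MCM4 (ENSG00000104738, chromosome 8 of hg38, 47960185 to 47978160, plus strand, 17 exons), part of the catalytic core of the ring, was the highest member, at 385 TPM in each NC library and at 167 and 156 TPM after knockdown. Its knockdown mean was 42.1% of the NC mean (log2 fold change -1.245, standard error 0.046). MCM7 (ENSG00000166508, chromosome 7, 100092233 to 100101940, minus strand, 15 exons), another core subunit, was at 270.0 and 254 TPM in NC and at 107 and 112 TPM after knockdown, or 41.8% of NC (log2 fold change -1.25, standard error 0.050). Of the 16937 genes tested, only 1.72% had a higher NC level than MCM4 and 2.89% a higher level than MCM7. These are thus abundant transcripts in the NC libraries.

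MCM3 (ENSG00000112118, chromosome 6, 52264014 to 52284881, minus strand, 17 exons), which sits between MCM5 and MCM7 in the ring, was at 249 and 246 TPM in NC and at 98.6 and 97.2 TPM after knockdown. This was 39.6% of NC, the lowest percentage of the ring subunits (log2 fold change -1.33, standard error 0.039). MCM2 (ENSG00000073111, chromosome 3, 127598410 to 127622436, plus strand, 16 exons), whose tail also carries histones H3 and H4, was at 218 and 229 TPM in NC and at 97.7 and 95.7 TPM after knockdown, or 43.3% of NC (log2 fold change -1.20, standard error 0.044). Both genes differed less between replicates than between the groups, which is description only, since the members were chosen with these values known.

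MCM6 (ENSG00000076003, chromosome 2, 135839626 to 135876443, minus strand, 17 exons), the subunit that contacts CDT1 during loading, was at 181 and 175 TPM in NC and at 90.6 and 84.7 TPM after knockdown, or 49.2% of NC (log2 fold change -1.015, standard error 0.051). MCM5 (ENSG00000100297, chromosome 22, 35400134 to 35425431, plus strand, 17 exons), which with MCM2 forms the gate through which DNA enters the ring, was at 135 and 137 TPM in NC and at 68.9 and 66.4 TPM after knockdown, or 49.75% of NC (log2 fold change -0.997, standard error 0.046). These were the lowest ring subunits by level and the ones with the smallest differences between the groups.

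The order of the subunits, MCM4, MCM7, MCM3, MCM2, MCM6 and MCM5 from high to low, was the same in all 4 libraries. In NC no neighbours in this order overlapped between replicates, while after knockdown the ranges of MCM3 and MCM2 did. Summed over the 6 subunits, transcripts made up 1438 and 1426 TPM in NC and 630.4 and 613 TPM after knockdown. The subunits of a ring are present in equal numbers as proteins, but their transcripts were not level, with the highest at 2.855 and 2.804 times the lowest in NC and at 2.43 and 2.35 times after knockdown. The share of MCM5 in the sum was 9.37% and 9.62% in NC and 10.9% and 10.8% after knockdown, and that of MCM6 was 12.6% and 12.3% against 14.4% and 13.8%. In turn MCM3 had 17.3% and 17.2% in NC and 15.6% and 15.9% after knockdown, and MCM4 had 26.8% and 27.0% against 26.6% and 25.5%. For MCM2 and MCM7 the groups overlapped. The lower sum was thus spread over all 6 subunits, with a slightly more even makeup in both knockdown libraries.

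**Figure D3:**
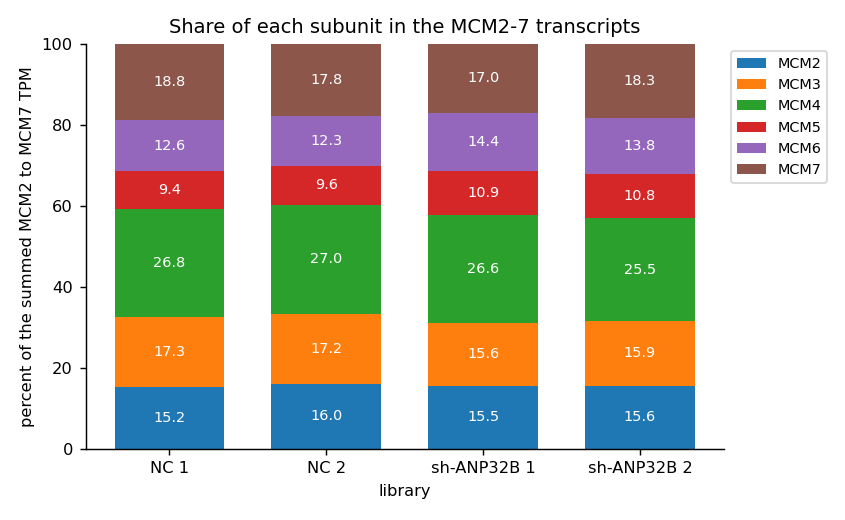
Share of each ring subunit in the summed TPM of MCM2 to MCM7, in percent, for each of the 4 libraries (each bar sums to the whole). MCM4 is the widest band in every library, at 25.5% to 27.0%, and MCM5 the narrowest, at 9.37% to 10.9%.

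CDT1 (ENSG00000167513, chromosome 16, 88803789 to 88809258, plus strand, 10 exons), the loader of the ring, was at 111 TPM in each NC library and at 36.4 and 35.9 TPM after knockdown. This was 32.6% of NC, the lowest of the 10 members (log2 fold change -1.59, standard error 0.048), and it ranked 24 from the bottom of the 16937 genes tested. GMNN (ENSG00000112312, chromosome 6, 24774931 to 24786099, plus strand, 7 exons), which encodes the inhibitor of CDT1, was at 87.5 and 84.0 TPM in NC and at 41.7 and 42.8 TPM after knockdown, or 49.25% of NC (log2 fold change -1.005, standard error 0.053), rank 288. The loader and its inhibitor changed places in the order of levels. The ratio of CDT1 to GMNN transcripts was 1.265 and 1.319 in the NC libraries and 0.873 and 0.839 in the sh-ANP32B libraries. This is description only, since both genes were chosen with these values known. Both proteins are also controlled by degradation, which RNA does not show.

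CDC6 (ENSG00000094804, chromosome 17, 40287879 to 40304657, plus strand, 12 exons), the ATPase that joins the origin recognition complex to the ring, was at 25.6 and 25.4 TPM in NC and at 11.985 and 10.4 TPM after knockdown, or 43.9% of NC (log2 fold change -1.12, standard error 0.098). MCM10 (ENSG00000065328, chromosome 10, 13161558 to 13211110, plus strand, 20 exons), which despite its name is no part of the ring, was the lowest member, at 21.0 and 21.9 TPM in NC and at 7.45 and 8.93 TPM after knockdown, or 38.2% of NC (log2 fold change -1.29, standard error 0.115). These low genes had the largest standard errors of the 10. The ratio of CDC6 to GMNN was 0.293 and 0.303 in NC and 0.288 and 0.244 after knockdown, so it shifted less than that of CDT1 to GMNN.

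Markers of other cell types and of cycling cells differed between the same groups. Of 13 monocyte and macrophage markers listed, 8 had values, and their sum was 62.6 and 63.5 TPM in NC and 379 and 373 TPM after knockdown. By limma 7 of these 8 rose, and only CSF1R was not called (background: 17.9% of genes tested were called higher). CD14, a defining monocyte marker, was not analysed here, and neither were VCAN, MPEG1, CD163 and MRC1. MKI67, the proliferation marker, fell from 103 and 108 TPM to 56.3 and 53.1 TPM (log2 fold change -0.935, adjusted p = 0.000212). Of the T cell markers 1 of 5 had values (CD2, 0.521 and 0.442 TPM in NC, 3.62 and 3.63 TPM after knockdown), of the B cell markers 3 of 5 (sums of 10.8, 11.5, 4.10 and 6.04 TPM in NC 1, NC 2, sh-ANP32B 1 and sh-ANP32B 2) and of the erythroid markers 1 of 6, while none of the 5 epithelial or 5 fibroblast markers had values. The part of such differences in the members' values was not tested.

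To set the members beside the rest of their pathway, 60 other genes were listed in 7 groups by function, and 57 of them had values and were tested. Like the marker lists, these groups were made with earlier results of these data known. The counts below therefore describe the lists and are not an independent test of them. By limma 30 of the 57 fell, 0 rose and 27 were not called, with a median log2 fold change of -0.51 (all genes tested: 0.08). Over all genes tested 10.1% were called lower and 17.9% higher, and 45.7% had an adjusted p below 0.05 in either direction, as did 41 of the 57. At an unadjusted p below 0.05 and the same fold limit, the counts among the 57 were again 30 and 0. All 17 genes that act with the ring after loading fell. Of the 7 origin recognition genes 5 were not called, beside 12201 of all 16937 genes tested. This and the shares above are the background for the counts of each group below. The rise of the monocyte markers and the fall of MKI67 run beside these counts as well, and their part was not tested.

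**Figure D4:**
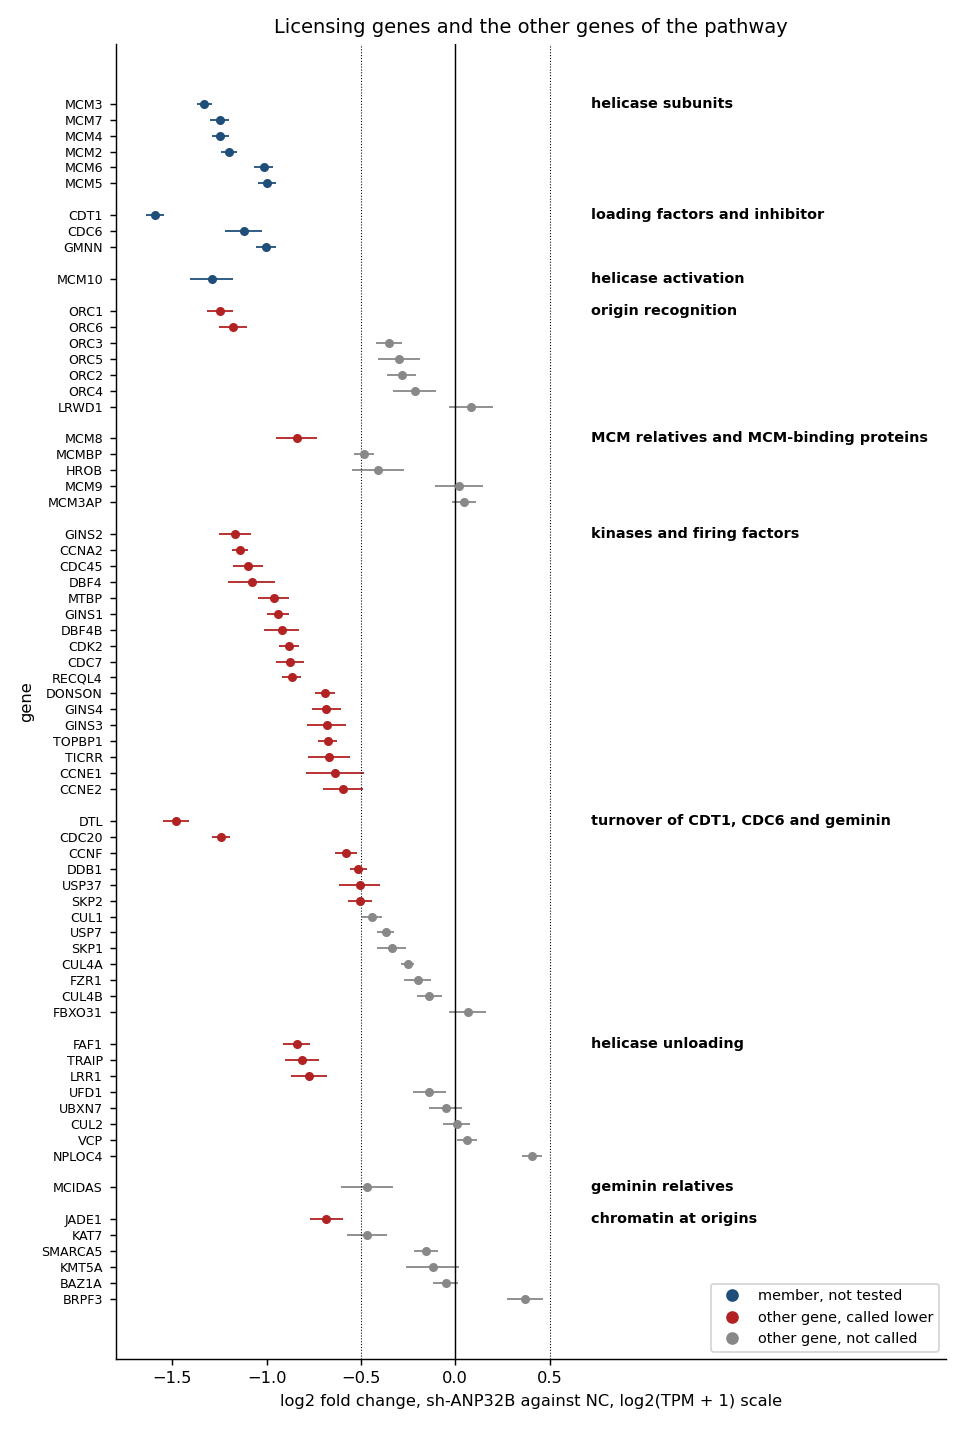
Log2 fold change of sh-ANP32B against NC on the log2(TPM + 1) scale for the 10 members (blue, not tested) and the 57 other pathway genes (red, called lower, gray, not called), grouped by function, with bars of 1 standard error and dotted lines at the fold limit of 0.5. All 17 kinases and firing factors lie left of the limit, while ORC1 and ORC6 stand apart from the other 5 genes of their group.

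Of the 7 origin recognition genes, 2 fell and 5 were not called. ORC1, the ATPase subunit whose protein is rebuilt in each cell cycle, was at 69.0 and 71.1 TPM in NC and at 30.4 and 27.5 TPM after knockdown (log2 fold change -1.25, standard error 0.070, adjusted p = 0.000196). ORC6, the smallest subunit, went from 65.7 and 62.6 TPM to 29.4 and 26.3 TPM (log2 fold change -1.18, adjusted p = 0.000252). The core subunits ORC2 (log2 fold change -0.285, adjusted p = 0.0287), ORC3 (-0.35, adjusted p = 0.0104), ORC4 (-0.22, adjusted p = 0.173) and ORC5 (-0.30, adjusted p = 0.0787) stayed inside the fold limit, and so did LRWD1, an ORC-binding protein (0.085, adjusted p = 0.589). ORC2 passed the adjusted p with all 4 libraries but not with any one of them left out, and without NC replicate 1 its value was -0.24 (adjusted p = 0.131). Set against these, the mean ring subunit was at 3.47 and 3.34 times the level of ORC1 in NC and at 3.45 and 3.72 times after knockdown, but at 9.08 and 9.67 times the level of ORC2 in NC and at 5.04 and 4.96 times after knockdown.

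Among the relatives and partners of the ring, 5 of 6 genes listed were tested and 1 fell. MCM8, which works in DNA repair and not in licensing, was at 24.6 and 29.4 TPM in NC and at 15.0 and 14.2 TPM after knockdown (log2 fold change -0.84, standard error 0.107, adjusted p = 0.00219). Its partner MCM9 was at 8.27 and 7.97 TPM in NC and at 8.88 and 7.67 TPM after knockdown (log2 fold change 0.02, adjusted p = 0.909), and the groups overlapped. MCMBP, which binds free MCM subunits, was at -0.485 on the log2 scale (adjusted p = 0.00129), just inside the fold limit. HROB, which assists MCM8 and MCM9, had -0.41 (adjusted p = 0.057), and MCM3AP, which carries MCM3 in its name but serves mRNA export, had 0.05 (adjusted p = 0.582). MCMDC2 was not analysed here. The mean ring subunit was at 2.91 and 3.06 times the level of MCMBP in NC and at 1.86 and 1.79 times after knockdown.

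All 17 kinases and firing factors fell, with a median log2 fold change of -0.88 (adjusted p-values from 8.68e-05 to 0.0206). The lowest was GINS2, a subunit of the GINS complex, at 30.8 and 30.6 TPM in NC and 12.5 and 13.7 TPM after knockdown (log2 fold change -1.17, adjusted p = 0.00034). The smallest change was that of CCNE2, a cyclin of CDK2, from 19.1 and 19.3 TPM to 13.4 and 11.4 TPM (log2 fold change -0.60, adjusted p = 0.00723). CDC45, which joins the ring with GINS to make the active helicase, went from 67.1 and 70.6 TPM to 33.7 and 29.7 TPM (log2 fold change -1.10, adjusted p = 0.000342). The kinase CDC7, which phosphorylates the ring, had -0.88 (adjusted p = 0.000542) and its activator DBF4 had -1.08 (adjusted p = 0.00159). The call of CCNE1, another cyclin of CDK2 (-0.64, adjusted p = 0.0206), was lost without NC replicate 2 (-0.55, adjusted p = 0.0921) and without sh-ANP32B replicate 2 (-0.52, adjusted p = 0.0765), and that of CCNE2 was lost without sh-ANP32B replicate 2 (-0.49, adjusted p = 0.0241), which is inside the fold limit.

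Of the 14 genes for turnover of CDT1, CDC6 and geminin, 13 were tested, 6 fell and 7 were not called. DTL, the receptor (CDT2) by which the CUL4 ubiquitin ligase takes hold of CDT1 in S phase, was at 53.0 and 52.9 TPM in NC and at 17.6 and 19.1 TPM after knockdown (log2 fold change -1.48, standard error 0.070, adjusted p = 0.000135). CDC20, which directs the anaphase-promoting complex in mitosis, went from 328 and 324 TPM to 133 and 142 TPM (log2 fold change -1.24, adjusted p = 8.96e-05). CCNF, which targets CDC6, had -0.58 (adjusted p = 0.000888). DDB1, USP37 and SKP2 were just past the fold limit, at -0.51, -0.51 and -0.50, and their calls were lost both without sh-ANP32B replicate 1 (-0.485, -0.47 and -0.43 in that order) and without NC replicate 2 (-0.486, -0.48 and -0.497). The ligase scaffolds CUL4A (-0.25, adjusted p = 0.00312), CUL4B (-0.14, adjusted p = 0.146) and CUL1 (-0.44, adjusted p = 0.00176) were not called. FBXO31 changed least (0.07, adjusted p = 0.625), and OTUD6A was not analysed here.

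Of the 8 genes for unloading the helicase, 3 fell, namely FAF1 (log2 fold change -0.84, adjusted p = 0.000548), TRAIP (-0.81, adjusted p = 0.00133) and LRR1 (-0.78, adjusted p = 0.00184). LRR1 and TRAIP are the ligase subunit and ligase that mark MCM7 for removal from DNA. VCP, the unfoldase that then pulls the ring apart, was at 144 and 146 TPM in NC and at 158 and 146 TPM after knockdown (0.06, adjusted p = 0.363), and its cofactor NPLOC4 was higher inside the fold limit (0.41, adjusted p = 0.00223). CUL2 changed least (0.01, adjusted p = 0.941). Of the 6 chromatin genes that act at origins, 1 fell, JADE1 (-0.68, adjusted p = 0.00229), a partner of the acetyltransferase KAT7 (-0.47, adjusted p = 0.016). BRPF3, another partner of KAT7, had 0.37 (adjusted p = 0.025), and BAZ1A changed least (-0.05, adjusted p = 0.570). Of the geminin relatives only MCIDAS was tested, with -0.47 (adjusted p = 0.0387), and GMNC was not analysed here. With single libraries left out, MCIDAS and BRPF3 passed the adjusted p only without sh-ANP32B replicate 2, and without NC replicate 1 they were at -0.40 (adjusted p = 0.155) and 0.33 (adjusted p = 0.0967).

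Some members share their locus with other genes. A gene was taken as a neighbour when it started within 1000 bases of a member on the other strand or overlapped a member in GENCODE version 44, and 6 such genes were tested. TPRA1 and PRKDC share no exonic bases with a member, whereas AP4M1 overlaps exons of MCM7 and 3 microRNA genes lie inside it, so the values of those 4 are not separate from that of MCM7 and no count over the 6 is set against the background. TPRA1 (ENSG00000163870), a membrane protein gene whose start lies 143 bases from that of MCM2 on the other strand, was at 71.8 and 72.5 TPM in NC and at 92.5 and 88.2 TPM after knockdown (log2 fold change 0.32, standard error 0.049, adjusted p = 0.00416). It was higher in both knockdown libraries but inside the fold limit, on the opposite side of 0 from MCM2. PRKDC (ENSG00000253729), the DNA-dependent protein kinase gene, starts 7 bases from MCM4 and was at 245 and 262 TPM in NC and at 168 and 161 TPM after knockdown (log2 fold change -0.62, standard error 0.050, adjusted p = 0.000467). It fell, by less than the difference of MCM4 (-1.245). AP4M1 (ENSG00000221838), a vesicle coat subunit gene that starts 391 bases from MCM7 and shares 392 exonic bases with it on the other strand, was at 14.0 and 13.9 TPM in NC and at 12.4 and 13.3 TPM after knockdown (log2 fold change -0.11, adjusted p = 0.381). It was not called, and the strand setting of the counting is not given in the sources used here, so reads of the shared bases could have been split between AP4M1 and MCM7. A long noncoding RNA, ENSG00000285600, shares 1113 exonic bases with MCM2 and was not analysed here.

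**Figure D5:**
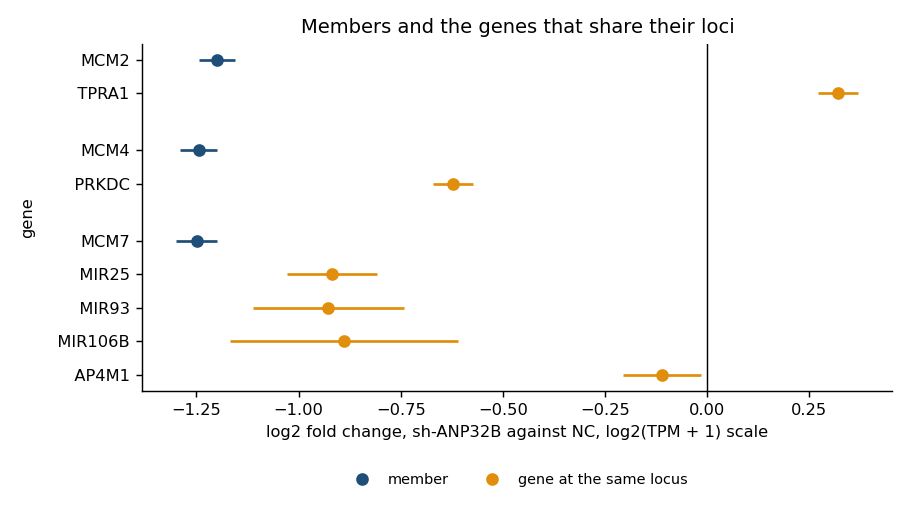
Log2 fold change of sh-ANP32B against NC on the log2(TPM + 1) scale for 3 members (blue) and the genes tested at their loci (orange), with bars of 1 standard error. TPRA1 lies to the right of 0 beside MCM2 at -1.20, PRKDC lies between 0 and MCM4, and the 3 miRNA genes lie nearer to MCM7 than AP4M1 does.

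The microRNA genes MIR25, MIR93 and MIR106B lie on the strand of MCM7 inside intron 13 of its canonical transcript and are cut from its precursor RNA. Their best known mature products, from RefSeq, are shown with the seed (bases 2 to 8) in capitals, since the seed decides which messages a microRNA recognises. The products of MIR106B and MIR93 share the seed AAAGUGC, and that of MIR25 has another.
hsa-miR-106b-5p, chr7:100094043-100094063, minus strand: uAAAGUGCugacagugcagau
hsa-miR-93-5p, chr7:100093815-100093837, minus strand: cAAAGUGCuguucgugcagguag
hsa-miR-25-3p, chr7:100093571-100093592, minus strand: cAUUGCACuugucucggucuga

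MIR25 was listed at 13.5 and 15.0 TPM in NC and at 7.105 and 7.055 TPM after knockdown (log2 fold change -0.92, standard error 0.111, adjusted p = 0.00184). MIR93 was at 13.7 and 10.3 TPM in NC and at 5.10 and 6.55 TPM after knockdown (log2 fold change -0.93, standard error 0.185, adjusted p = 0.0107). MIR106B was at 12.3 and 7.125 TPM in NC and at 5.54 and 3.82 TPM after knockdown (log2 fold change -0.89, standard error 0.28, adjusted p = 0.0472). In each of the 3 genes both knockdown libraries lay below both NC libraries. This was also so for 32.1% of all genes tested, and the 3 genes are not separate from MCM7. The spread was widest for MIR106B. Its call was lost without NC replicate 1 (-0.53, adjusted p = 0.163) and without sh-ANP32B replicate 2 (-0.67, adjusted p = 0.150). These genes are short, an exon of an MCM7 transcript covers 29 bases of MIR93, and the MCM7 precursor RNA runs through all 3, so reads of the miRNA genes and of the MCM7 precursor cannot be told apart and the mature miRNAs were not measured.

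The same motif search was made over the genes tested, with the members left out. An E2F-type word was in a listed promoter of 38.9% of 1160 genes called lower, 23.7% of 7126 not called and 17.9% of 1719 called higher that had an entry. In the same order, the shares were 16.5%, 12.5% and 11.9% for the E-box and 47.3%, 41.9% and 42.4% for the CCAAT box. The median GC content of these groups, with each gene taken at its window of highest GC, was 66.3%, 67.0% and 66.3%. The GC medians given earlier were taken over windows and not over genes. Among the other pathway genes with an entry, an E2F-type word was in 10 of 23 that fell (43.5%) and in 12 of 25 not called (48.0%). ORC1, DTL, MCM8, CDC7, LRR1 and TOPBP1, which fell, had 2 words each, and so did FZR1, which was not called. CDC45, CDC20, ORC6 and CCNA2 were among the genes that fell and had none. These shares are descriptions of the letters in the listed windows of each gene, and no test was made of them.

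The 5 genes whose values over the 4 libraries were most like the mean profile of the ring subunits were NEK2, CDCA5, TYMS, PHGDH and MELK. Likeness was the Euclidean distance between log2(TPM + 1) values, each centred on its own mean, over the 4 libraries, and genes with a mean under 10 TPM were left out. NEK2, a centrosome kinase, was nearest, at a distance of 0.0243 (70.7 and 71.7 TPM in NC, 31.5 and 30.9 TPM after knockdown). CDCA5, which holds sister chromatids together, was at 0.0285, TYMS, which makes thymidylate for DNA synthesis, at 0.0331, and PHGDH, the first enzyme of serine synthesis, at 0.0350. MELK, a kinase of cycling cells, was at 0.0378 (55.2 and 54.2 TPM in NC, 24.3 and 24.1 TPM after knockdown). With 4 libraries in 2 groups, the distance mainly reflects the size of the difference between the groups.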

How the data were processed

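RNA of MV4-11 cells was sequenced from TruSeq RNA libraries. Alignment used HISAT2 (2.0.5) and hg38 per the labels, and the authors deposited TPM for each gene. The quantification tool, annotation and strand setting are not given in the sources used here. The unit was read from the values, the reads per library are unknown, and the genes listed had a mean of at least 0.5 TPM. Symbols and positions came from GENCODE version 44 (17290 of 18885 identifiers had a symbol). HROB was listed under its older name. Promoters and miRNAs came from RefSeq.

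The members and all lists were chosen with earlier results of these data known. The named genes were the members, the origin recognition and MCM relatives lists, called genes and extremes of each other list, locus neighbours, ANP32B and the 5 nearest profiles. Other genes named with a value (MKI67, markers and genes near a limit) were named after their values were seen.

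Genes that reached 1 TPM in 2 or more libraries were tested on log2(TPM + 1) with limma (3.58.1, R 4.3.3; lmFit, eBayes with trend) and Benjamini-Hochberg adjustment. The study's methods name a count test, which TPM do not allow. The test was tried on simulated data. Motifs and plots used Python 3.11.15 (pandas 2.3.3, numpy 2.4.6, matplotlib 3.10.9). Alternatives were median-of-ratios scaling, quantile normalization, a pseudocount of 0.1, other filters, an unadjusted p, a replicate block and each library left out.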

Additional observations from a re-analysis of the deposited data

How the results depend on the processing

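Each of the 10 members stayed negative under every alternative run, between -1.67 and -0.97 on the log2 scale. Their median of -1.222 was -1.306 with median-of-ratios scaling and -1.201 with quantile normalization, and ran from -1.219 to -1.19 with single libraries left out. The median of the other pathway genes (-0.507) was -0.585, -0.58 and from -0.541 to -0.485 in the same order, and that of all genes (0.079) was 0.007, -0.04 and from 0.061 to 0.092. The last was 0.091 with no filter, which let in more genes, and 0.044 with at least 1 TPM in all 4 libraries, which left genes out. Quantile normalization thus moved the median of all genes by -0.119, and relative to that median the members were at -1.161 in place of -1.301. Lower genes made up 36.1% of all calls, but 47.1% with median-of-ratios scaling and 50.2% with quantile normalization.

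The 30 pathway genes called lower were between 27 and 34 under the alternatives, with 0 higher in each, and of the neighbours 3 or 4 were called, PRKDC and the miRNA genes inside MCM7. DDB1 and SKP2 lost their calls under quantile normalization, DDB1, SKP2, USP37 and CCNE1 without NC replicate 2, and MIR106B without a filter (adjusted p = 0.0502). MCMBP, CUL1, MCIDAS and KAT7 were called in addition with median-of-ratios scaling, and HROB, MCIDAS and KAT7 with quantile normalization. Beyond the scalings, the causes were not tested. The deviations of libraries that share a replicate number were not related (correlation -0.0232), so the numbers were not used as pairs. In the fit with a replicate block, 30 pathway genes were again lower and 0 higher, the members' median was -1.222, and no pathway or neighbour call was lost or gained. The depth behind the TPM is unknown, so no counting error can be given for any gene.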

Other observations

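Of 8 reference genes of the cell cycle outside licensing, 4 fell, 1 rose and 3 were not called by limma, beside a background of 10.1% of genes called lower and 17.9% called higher. PCNA, the sliding clamp of the replication fork, went from 402 and 403 TPM in NC to 192 and 192 TPM after knockdown (log2 fold change -1.07, adjusted p = 6.68e-05). TOP2A, which untangles DNA in mitosis, fell by 0.985 on the log2 scale (adjusted p = 9.69e-05), and TK1, which salvages thymidine, had -0.995 (adjusted p = 0.000211). CDKN1A, the CDK inhibitor p21, rose from 8.56 and 7.15 TPM to 16.5 and 20.2 TPM (log2 fold change 1.13, adjusted p = 0.00215). The G1 regulators CCND3 (-0.06, adjusted p = 0.529), CDKN1B (-0.28, adjusted p = 0.00571) and CDKN2C (-0.46, adjusted p = 0.00144) were not called. The mean ring subunit was at 2.32 and 2.21 times the level of MKI67 in NC and at 1.87 and 1.92 times after knockdown, and at 3.57 and 3.37 times the level of CDC45 in NC and at 3.12 and 3.44 times after knockdown.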
